A study of Homo sapiens with 8 samples.

Results

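The HOX genes described here were chosen by name: every gene in the deposited expression tables whose symbol is HOX, a cluster letter from A to D and a number, which takes the protein-coding members and leaves out their antisense transcripts. They numbered 39 of the 57978 genes present in both tables, with 11 in cluster A on chromosome 7, 10 in cluster B on chromosome 17, 9 in cluster C on chromosome 12 and 9 in cluster D on chromosome 2. The study used HEK293T, a human embryonic kidney cell line, expressing the translation initiation factor subunit eIF3d with a TEV protease site. Cells of every group carried this construct and were harvested after 48 h in either of the media. Complete medium was DMEM and 10% FBS, and the other was glucose-free DMEM and 10% dialyzed FBS. Glucose and serum dialysis thus changed together, and their effects cannot be told apart in a comparison between the media. The words "without glucose" below name the second medium. UV light of 254 nm joined RNA to the proteins it touched, eIF3d was pulled down through an HA epitope, and TEV protease separated it from the remaining eIF3 subunits. Polyadenylated RNA was sequenced from the input and from the eIF3d immunoprecipitate (IP), giving 4 groups of 2 libraries: complete input, complete IP, glucose-free input and glucose-free IP.

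The clone and origin of the line, the copy number of the tag and an IP from untagged cells are not analysed here, so an IP value has no background from beads. The labels number the libraries of a group without naming separate cultures, so the p-values reflect how far these libraries spread, and that spread may be technical. Library totals recovered from the deposited values lay between 8656923 and 43400892 reads, the glucose-free IPs being the shallowest. Nuclear protein-coding genes took 27.4% to 29.1% of the reads in the inputs and 53.7% to 65.0% in the IPs. Each of the 7 HEK293 markers looked up, neurofilaments and keratins among them, reached 1 RPKM (a read count corrected for exon length and for the depth of the library) in at least 1 library. Of 23 markers of other cell types 4 did so, led by the erythroid gene HBA1 at 10.0 RPKM.

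HOX genes encode homeodomain transcription factors that give cells along the head-to-tail axis and along the limb their positional identity. Their order along the chromosome matches the order in which they act: genes with low numbers lie at the 3′ end of a cluster and act in anterior territories such as the hindbrain, and those with high numbers act in the lumbosacral region, the distal limb and the urogenital tract. Genes with the same number in different clusters are paralogues. Polycomb proteins keep the clusters silent and Trithorax proteins of the MLL family keep them active, while cofactors of the TALE class, PBX and MEIS, bind DNA together with HOX proteins. eIF3d is a subunit of eIF3 that can itself hold the cap of some mRNAs, and the JUN mRNA is a known example.

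HOX clusters also hold microRNAs that pair with HOX mRNAs. The sequences below are shown because they lie in the clusters measured here or pair with a member, and they come from RefSeq on GRCh38.p14, written 5′ to 3′ with the seed (bases 2 to 8) in capitals. MIR196A1 lies in cluster B, MIR196A2 in cluster C, MIR196B in cluster A and MIR10A in cluster B.
hsa-miR-196a-5p: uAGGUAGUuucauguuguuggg
hsa-miR-196b-5p: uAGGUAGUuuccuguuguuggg
hsa-miR-10a-5p: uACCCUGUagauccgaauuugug
The miR-196 forms share 1 seed, and its match ACTACCT stood on the transcript strand of the 3′ UTR of 9 of the 39 HOX genes (23.1%), against 8.64% of 8291 tested genes with a 3′ UTR. Among the 9 were HOXA5, HOXA7, HOXA9, HOXB1, HOXB6, HOXB7, HOXB13 and HOXC8. The match to the miR-10a seed, ACAGGGT, stood in 3 of 39 (7.69%, HOXA3 and HOXB3 among them) against 14.8%. HOXB8 holds no full seed match, but 21 of 22 bases of the site below, at bases 411 to 432 of its 3′ UTR in GENCODE 29, equal the complement of miR-196a, with the substitution A18G counted from the 5′ end of the site and the changed base in lower case.
HOXB8 site: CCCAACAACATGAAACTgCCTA
A match is a description of letters. The microRNAs themselves were not measured by these libraries of polyadenylated RNA.

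Promoter sequence is shown for HOXA6 and HOXD13, chosen with their values known. HOXA6 had the largest fall in input level without glucose on the log2 scale defined below, which understates changes of low genes. The estimate for HOXD13 lay near 0. Each line gives the 250 bases before the RefSeq start in lower case and the first 30 bases from the start in capitals, for HOXA6 at chr7:27147745-27148024 on the minus strand and for HOXD13 at chr2:176092471-176092750 on the plus strand of GRCh38.p14.
HOXA6: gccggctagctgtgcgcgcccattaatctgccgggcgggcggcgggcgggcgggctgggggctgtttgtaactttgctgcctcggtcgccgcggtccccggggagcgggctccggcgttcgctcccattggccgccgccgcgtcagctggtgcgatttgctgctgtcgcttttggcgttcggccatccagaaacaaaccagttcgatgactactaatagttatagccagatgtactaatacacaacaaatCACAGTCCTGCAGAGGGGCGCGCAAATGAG
HOXD13: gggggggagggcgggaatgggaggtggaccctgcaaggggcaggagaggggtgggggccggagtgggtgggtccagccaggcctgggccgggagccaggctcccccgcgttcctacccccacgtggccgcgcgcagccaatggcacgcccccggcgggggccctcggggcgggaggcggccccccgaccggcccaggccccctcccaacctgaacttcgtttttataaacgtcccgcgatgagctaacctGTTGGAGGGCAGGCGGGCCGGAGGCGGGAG
GC content was 62.1% in the HOXA6 stretch and 74.6% in the HOXD13 stretch. RefSeq listed 27 promoter windows for 20 of the HOX genes. The letters TATAAA, searched on both strands, stood in 5 of the 27 windows (18.5%) against 11.5% of 35116 windows of all genes, and HOXD13 was among them. TGATTNAT, the composite PBX and HOX motif, also searched on both strands, stood in 2 of the 27 (7.41%) against 2.82%; neither HOXA6 nor HOXD13 held it.

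RNA of 34 of the 39 members was found in all 8 libraries, and HOXB1, HOXC5, HOXD1, HOXD4 and HOXD12 were at 0 in at least 1. Their levels were low. The members that reached 1 RPKM numbered 13 and 21 as complete input, 5 and 6 as glucose-free input, 32 and 31 as complete IP and 28 and 31 as glucose-free IP. Summed over the 39, RPKM was 50.2 and 90.8 as complete input, 412 and 518 as complete IP, 18.3 and 18.9 as glucose-free input and 405 and 531 as glucose-free IP. HOX reads were also taken as a share of reads on nuclear protein-coding genes, whose part of the libraries differed. This share was 0.0401% and 0.0730% as complete input and 0.185% and 0.235% as complete IP. It was 0.0155% and 0.0152% as glucose-free input and 0.168% and 0.194% as glucose-free IP. The share does not take out differences among coding genes, such as length. Of the summed RPKM of these genes, HOX genes held 0.0458% and 0.0915% as complete input and 0.377% and 0.506% as complete IP. They held 0.0171% and 0.0167% as glucose-free input and 0.302% and 0.335% as glucose-free IP. Both IP libraries of a medium thus lay above both of its inputs, and the glucose-free inputs lay below the complete ones.

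**Figure D1:**
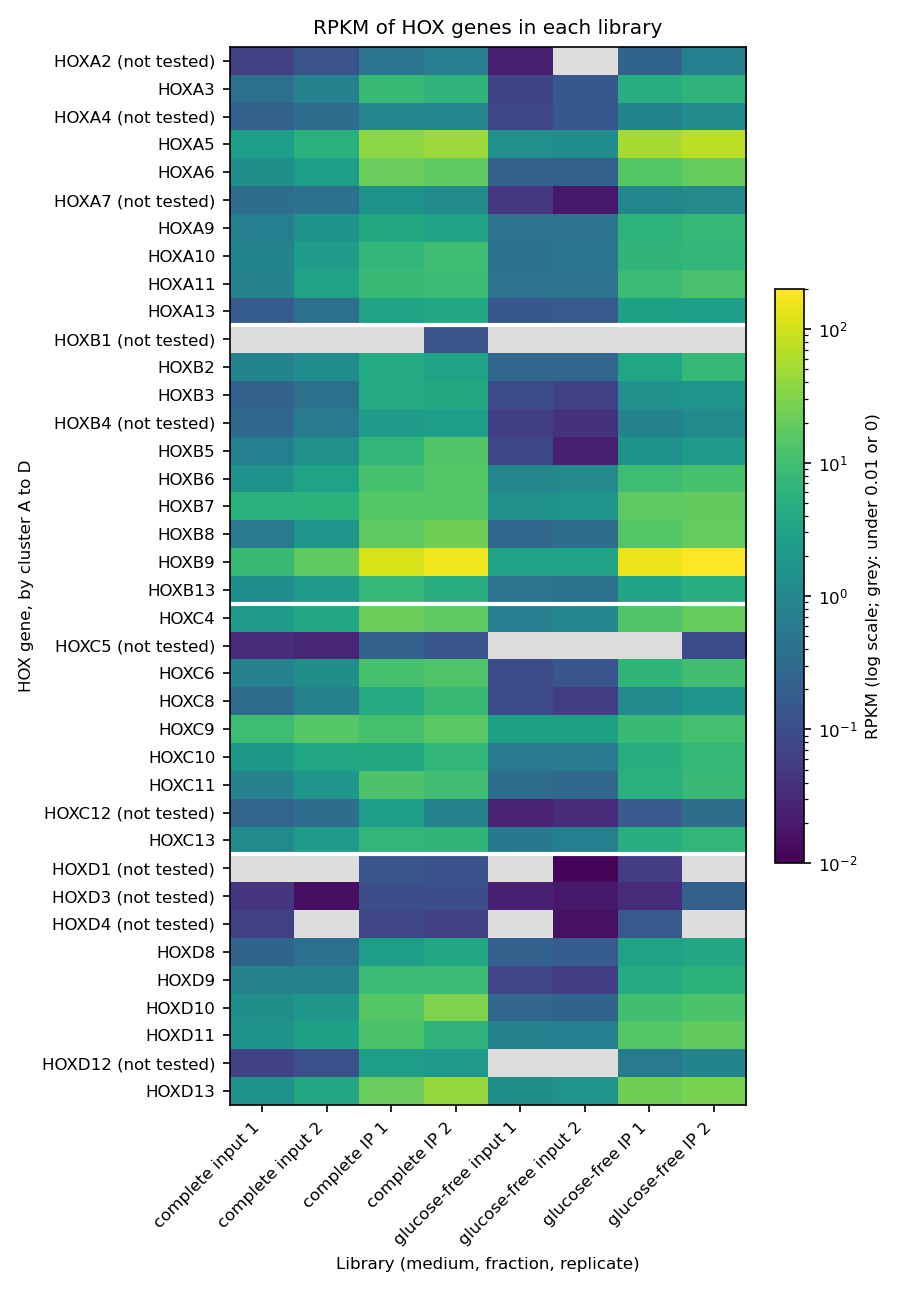
Deposited RPKM of 38 of the HOX genes (rows, by cluster) in each of the 8 libraries (columns), as colour on a log scale, with grey for values under 0.01 or at 0. HOXB9 is the brightest row in the IP columns, at 111 to 197 RPKM, and the 2 glucose-free input columns are the darkest.

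HOXB9, a posterior gene that in mice takes part in patterning the rib cage, was the most abundant member per length. It had 8.21 and 17.7 RPKM as complete input, 111 and 162 as complete IP, 3.24 and 3.12 as glucose-free input and 152 and 197 as glucose-free IP. HOXB9 made up 16.3% to 19.5% of the summed HOX RPKM in the 4 inputs, 27.0% and 31.2% in the complete IPs and 37.5% and 37.2% in the glucose-free IPs. HOXC9, its paralogue in cluster C and in mice a regulator of thoracic motor neuron identity, led in complete input replicate 1 and followed HOXB9 in the other 3 inputs. It had 9.26 and 14.5 RPKM as complete input, 11.4 and 16.0 as complete IP, 2.87 and 2.79 as glucose-free input and 8.26 and 10.8 as glucose-free IP. In every IP the second place went to HOXA5 instead, a central gene known in mice for lung development. HOXA5 had 2.60 and 5.53 RPKM as complete input, 37.4 and 47.0 as complete IP, 1.46 and 1.30 as glucose-free input and 54.4 and 74.0 as glucose-free IP.

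The shares of the clusters differed between the fractions, and HOXB9 and HOXC9 held much of the difference. Cluster B held 36.9% to 38.5% of the summed HOX RPKM in the inputs and 43.7% to 50.03% in the IPs. Cluster C held 28.8% to 33.8% in the inputs and 11.2% to 18.3% in the IPs. Cluster A held 16.0% to 19.8% in the inputs and 19.97% to 25.1% in the IPs, and cluster D 10.9% to 15.4% and 12.8% to 18.1%. The ranges of inputs and IPs overlapped for cluster D and not for the others. Of the same total, HOXB9 included, the rest of cluster B held 18.7% to 22.1% in the inputs and 12.5% to 16.6% in the IPs. Such a share falls where that of HOXB9 rises, so it does not by itself give the direction of the rest. HOXC9 alone held 14.7% to 18.4% in the inputs and 2.03% to 3.09% in the IPs. The rest of cluster C held 13.1% to 15.4% and 9.16% to 15.5%, ranges that overlapped.

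The test across genes kept those with a mean of at least 1 RPKM over the 8 libraries, 10100 in all. Of the HOX genes 28 passed: 8 of 11 in cluster A, 8 of 10 in B, 7 of 9 in C and 5 of 9 in D. The 11 that were not tested were HOXA2, HOXA4, HOXA7, HOXB1, HOXB4, HOXC5, HOXC12, HOXD1, HOXD3, HOXD4 and HOXD12. Of the 28 tested members 14 had a mean below 1 RPKM over the 4 inputs, so they passed through the IP libraries, and counts over the 28 are not counts over all HOX genes. Among the untested, HOXB1 was at 0 in 6 libraries and had 0.133 RPKM (7 reads) in complete IP replicate 2 and 0.00931 (1 read) in glucose-free input replicate 2. With 0 reads the floor of 3 reads allowed HOXB1 levels of up to 0.140 RPKM in glucose-free IP replicate 1, the shallowest library, and this floor speaks of counting error alone, because reads need not be independent molecules. HOXD12 was at 0 in both glucose-free inputs, had 0.0703 and 0.114 RPKM as complete input, 2.48 and 2.07 as complete IP and 0.601 and 0.864 as glucose-free IP.

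The first comparison was the complete IP against the complete input, that is, which HOX mRNAs came down with eIF3d more or less than the median gene in fed cells. RPKM were divided by a factor per library that made the median of the tested genes equal, because the IPs had medians of 4.55 to 6.49 RPKM and the inputs of 0.833 to 1.75; all log2 changes below are of log2(scaled RPKM + 1), so they are relative to the median gene and understate the change of low genes. Of the 28 tested HOX genes 18 were higher in the IP and 1 was lower (limma, Benjamini-Hochberg adjusted p under 0.05 over all 10100 genes). Over all genes tested 30.0% were called higher and 29.9% lower, 59.9% in either direction. The median log2 change of the 28 was 0.94, against 0.026 over all genes tested, with a range from -1.34 to 2.04. Of the 14 tested members with a mean of at least 1 RPKM over the inputs, 6 were higher and 1 lower, with a median of 0.55, and of the 14 below that mean 12 were higher and 0 lower, with a median of 1.15. In scaled RPKM both IPs lay above both inputs for 20 of the 28, against 37.9% of all genes, both lay below for 3 against 36.1% (HOXB7, HOXC9 and HOXC10), and the libraries overlapped for 5. Before scaling, both IPs lay above both inputs for 27 of the 28, against 68.9% of all genes tested, and scaling took out a shift of 1.11 (log2) of the median gene.

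HOXB8, a central gene that in mice acts in microglia and in the spinal cord, had the highest change. It had 0.615 and 1.80 RPKM in the inputs and 17.4 and 23.5 in the IPs, which is a log2 change of 2.04 (limma SE 0.27, adjusted p = 0.000308; SE also follows ± below). HOXB9 changed by 1.74 ± 0.33 (limma adjusted p = 0.00203), HOXD10 by 1.68 ± 0.31 (0.00165), HOXD13 by 1.66 ± 0.36 (0.00408) and HOXA5 by 1.63 ± 0.28 (0.0011). HOXD10 and HOXD13 are posterior genes active in the limb, and HOXD13 is the gene of human synpolydactyly. HOXD10 had 1.39 and 1.89 RPKM in the inputs and 14.5 and 29.8 in the IPs, and HOXD13 had 1.62 and 3.89 in the inputs and 20.6 and 43.0 in the IPs. In both, replicate 2 was the higher of the IPs, and both IPs lay above both inputs.

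HOXA6 and HOXC6, paralogues of the central group that marks thoracic and forelimb levels, changed alike, by 1.44 ± 0.20 (limma adjusted p = 0.000376) and 1.43 ± 0.20 (0.000357). HOXA6 had 1.40 and 2.44 RPKM in the inputs and 20.8 and 18.1 in the IPs. HOXC6 had 0.802 and 1.33 in the inputs and 11.4 and 13.1 in the IPs. Both tested members of paralogue group 3 were lower in level and rose too: HOXA3, needed for the thymus and parathyroids in mice, by 1.28 ± 0.18 (0.000379), and HOXB3 of the hindbrain by 1.09 ± 0.13 (0.000171). The remaining calls upward lay between 0.66 and 1.23 on the log2 scale and included HOXA13, HOXB5, HOXB6, HOXC4, HOXC8, HOXC11, HOXD8 and HOXD9.

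HOXC9 went the other way. Its scaled RPKM was 18.5 and 20.3 in the complete inputs and 5.73 and 8.61 in the IPs, a log2 change of -1.34 ± 0.25 (limma adjusted p = 0.00172). The deposited RPKM overlapped, and on that scale the change was 0.21 (limma adjusted p = 0.574), so the call rests on the scaling. With trends on exon length and GC content removed per library it was -0.18 (limma adjusted p = 0.569). Its neighbour HOXC10, a lumbar gene, had 1.93 and 3.65 RPKM in the inputs and 4.17 and 7.10 in the IPs (-0.50 ± 0.25, limma adjusted p = 0.114). HOXB7, which had 5.55 and 5.88 RPKM in the inputs and 14.9 and 14.2 in the IPs, had a change of -0.30 ± 0.22 (limma adjusted p = 0.27). HOXB9, with an input level like that of HOXC9, was called in the opposite direction.

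By position along the body axis, 3 of the 4 tested anterior members (paralogue groups 1 to 3) were higher in the complete IP, 9 of the 10 central members (groups 4 to 8) and 6 of the 14 posterior members (groups 9 to 13), of which 1 other was lower. The medians were 0.87, 1.16 and 0.55 log2 units. The share of all genes tested that were called higher was 30.0%. Of the 14 tested members that passed the filter through the IPs 12 were higher, and of the other 14 there were 6. The classes were not split by input level, and differences between them were not tested. Of the posterior genes that did not pass, HOXA9, a regulator of blood stem cells, stood at 0.02 ± 0.20 (limma adjusted p = 0.936), HOXB13 of the prostate at 0.11 ± 0.21 (0.677), and HOXC13 of hair and nail at 0.25 ± 0.20 (0.315). Of the 19 calls, 16 stood when any 1 of the 8 libraries was left out. Of the others HOXB5 lost the call without complete input replicate 1 (limma adjusted p = 0.0626), and HOXB6 lost it in 6 of the 8 such fits (0.0685 to 0.131). The count of members lower rose without replicate 2 of the complete inputs, and likewise without replicate 2 of the complete IPs. The shares of all genes called in those fits are not given.

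**Figure D2:**
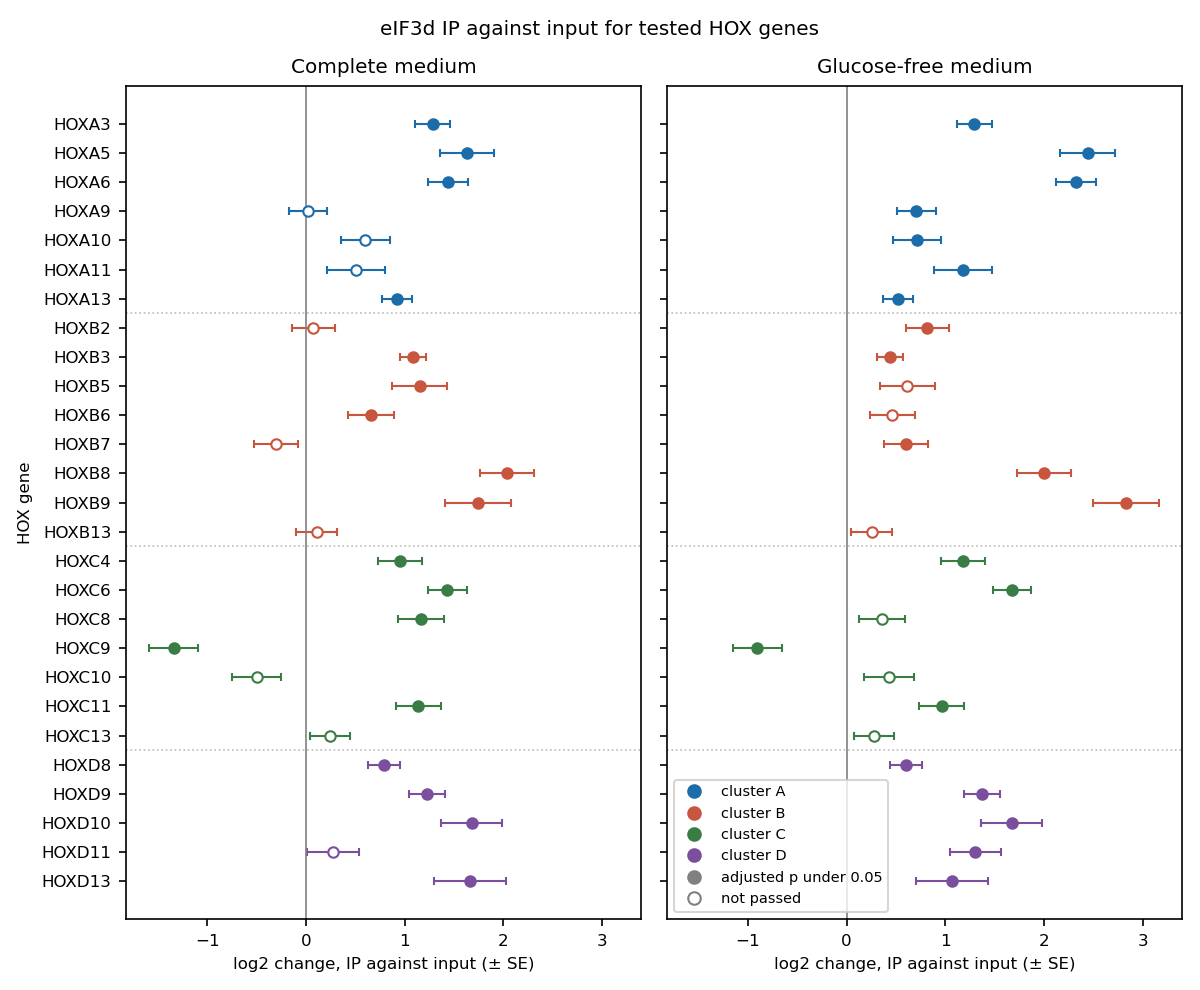
The log2 change of scaled RPKM, IP against input, of 27 of the tested HOX genes (rows) in complete medium (left) and glucose-free medium (right), as point ± SE from the limma fit; filled points passed at an adjusted p under 0.05. HOXB9 reaches 2.83 in glucose-free medium, and HOXC9 is the filled point left of 0 in both panels.

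The same comparison in cells kept without glucose gave 20 members higher in the IP and 1 lower, where 27.6% of all genes tested were called higher and 32.2% lower, 59.8% in either direction. The median of the 28 was 0.77 against -0.018 for all genes, with a range from -0.90 to 2.83. Of the 14 members with mean inputs of at least 1 RPKM 9 were higher and 1 lower, and of the other 14 tested 11 were higher and 0 lower. In scaled RPKM both IPs lay above both inputs for 27 of the 28, against 44.6% of all genes, and below for HOXC9, against 45.9%. HOXB9 had the largest log2 change, 2.83 ± 0.33 (limma adjusted p = 0.000152), followed by HOXA5 at 2.44 ± 0.28 (0.000131), HOXA6 at 2.33 ± 0.20 (4.64e-05), HOXB8 at 2.0 ± 0.27 (0.000317) and HOXC6 at 1.68 ± 0.20 (0.000152). This order holds on the scale with 1 added, which understates the change of low genes such as HOXA6. HOXA6 had 0.206 and 0.197 RPKM in the glucose-free inputs, from 9 and 11 reads, and 14.5 and 19.9 in the IPs. HOXB8 had 0.287 and 0.359 RPKM in the inputs and 14.0 and 19.2 in the IPs. For HOXA6 and HOXB8 the deposited IP values of the 2 media overlapped, and the glucose-free inputs lay below the complete ones. In scaled RPKM the glucose-free IPs lay below the complete ones too: HOXA6 had 10.4 and 9.74 as complete IP and 6.32 and 7.51 as glucose-free IP. HOXB8 had 8.76 and 12.6 and then 6.10 and 7.24.

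HOXD10 changed by 1.67 ± 0.31 (limma adjusted p = 0.00156), from 0.262 and 0.240 RPKM to 10.1 and 12.0. HOXD9 and HOXD11, limb genes of which the latter belongs to the paralogue group needed for the kidney in mice, changed by 1.37 ± 0.18 (0.000275) and 1.31 ± 0.26 (0.00247). HOXD11 had 0.767 and 0.710 RPKM in the inputs and 14.7 and 18.3 in the IPs. In complete medium it had 1.63 and 2.89 in the inputs and 12.3 and 6.25 in the IPs, its 2 IPs differing by more than its inputs, with a change of 0.27 ± 0.26 (limma adjusted p = 0.394). HOXD13 went from 1.37 and 1.68 RPKM to 23.2 and 26.9, a change of 1.07 ± 0.36 (limma adjusted p = 0.0305), and HOXC4, a cervical-level gene, from 0.702 and 0.989 to 13.6 and 19.7, a change of 1.18 ± 0.22 (0.00166). All 5 tested members of cluster D were called higher without glucose, where 27.6% of all genes tested were. Of the 5, 3 had a mean input below 1 RPKM and so passed the filter through the IPs, and 4 of the 9 members were not tested.

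HOXC9 was called lower again, at -0.90 ± 0.25 (limma adjusted p = 0.0121), with scaled RPKM of 8.44 and 7.65 as glucose-free input and 3.60 and 4.07 in the IPs. As deposited its IPs lay above its inputs, and the change there was 1.45 (limma adjusted p = 0.00114). The call was lost without any 1 of the 4 glucose-free libraries (limma adjusted p = 0.0612 to 0.0967). The glucose-free calls leaned more on single libraries than the complete ones: 10 of the 21 stood in every fit that left out a library, namely HOXA3, HOXA5, HOXA6, HOXB8, HOXB9, HOXC4, HOXC6, HOXD9, HOXD10 and HOXD11. Without any 1 of the 4 glucose-free libraries the calls of HOXA9 (limma adjusted p = 0.0638 to 0.0879), HOXA10 (0.11 to 0.145), HOXB3 (0.0744 to 0.147), HOXB7 (0.155 to 0.22) and HOXD13 (0.0893 to 0.136) were lost. HOXA13 and HOXB2 lost theirs in 3 of those 4 fits (limma adjusted p = 0.0901 to 0.133 and 0.0581 to 0.112), HOXC11 and HOXD8 without the second glucose-free library of either fraction (0.0583 to 0.0615 and 0.0778 to 0.107), and HOXA11 without glucose-free IP replicate 2 (0.0543). The count of members higher fell without glucose-free input replicate 1, without glucose-free input replicate 2 and without glucose-free IP replicate 2. The shares of all genes called in those fits are not given.

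By paralogue class 3 of 4 anterior, 7 of 10 central and 10 of 14 posterior members were higher, and the medians were 0.63, 0.90 and 0.84. Of all genes tested 27.6% were higher, and differences between the classes were not tested. Called higher in both media were 14 members: HOXA3, HOXA5, HOXA6, HOXA13, HOXB3, HOXB8, HOXB9, HOXC4, HOXC6, HOXC11, HOXD8, HOXD9, HOXD10 and HOXD13. HOXB5, HOXB6 and HOXC8 were among those that passed in complete medium and not without glucose. HOXA9, HOXA10, HOXA11, HOXB2, HOXB7 and HOXD11 passed without glucose and not in complete medium. HOXB13, HOXC10 and HOXC13 passed in neither. Passing in a single medium is not a difference between media, which has its own test below.

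**Figure D3:**
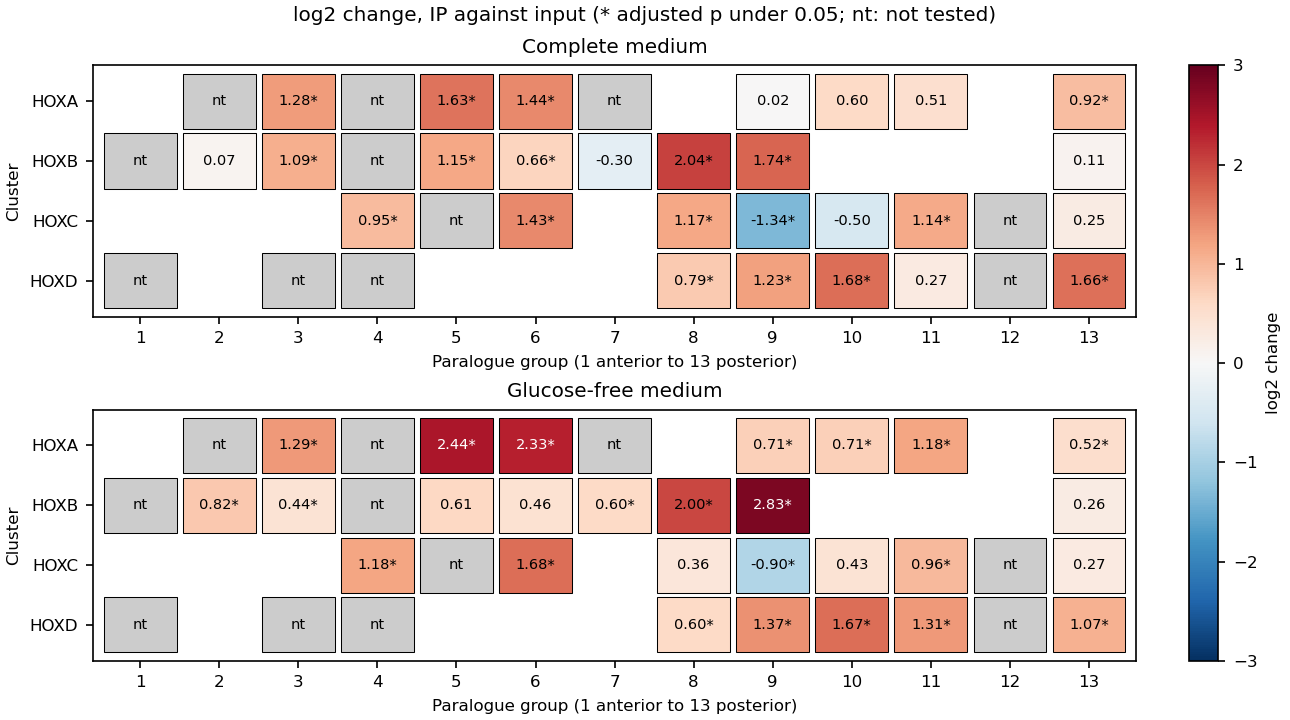
The log2 change of IP against input laid out by cluster (rows) and paralogue group (columns, anterior to posterior) in complete (top) and glucose-free medium (bottom), with an asterisk for an adjusted p under 0.05 and grey for members that were not tested; 38 members are drawn. Paralogue group 9 holds both the largest value in the grid, HOXB9 at 2.83, and the smallest, HOXC9 at -1.34.

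Values are given here by paralogue group. In group 9 the changes in complete medium were 0.02 for HOXA9, 1.74 for HOXB9, -1.34 for HOXC9 and 1.23 for HOXD9. In group 10 HOXD10 passed at 1.68 while HOXA10 stood at 0.60 (limma adjusted p = 0.0631) and HOXC10 at -0.50. In group 6 HOXA6 (1.44), HOXB6 (0.66) and HOXC6 (1.43) all passed in complete medium. In group 13 HOXA13 (0.92) and HOXD13 (1.66) passed there, and HOXB13 and HOXC13 did not. Differences between paralogues were not tested.

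The test of the difference between media, the IP to input ratio without glucose minus that in complete medium, called 0 of the 28 higher and 0 lower with limma, and 0 of each with limma voom on recovered reads, which called 0.851% of all genes higher and 0.535% lower. Over all genes tested 1.95% were called higher and 3.08% lower. At an unadjusted p under 0.05, 7 members were higher and 2 lower, where 12.2% of all genes tested were higher and 14.7% lower. The median of the 28 was 0.13, against -0.026 over all genes, and single values ran from -0.81 to 1.09. HOXB9 stood at 1.09 ± 0.47 (limma adjusted p = 0.18), HOXD11 at 1.03 ± 0.37 (0.126), HOXC10 at 0.93 ± 0.35 (0.14), HOXB7 at 0.91 ± 0.32 (0.12) and HOXA6 at 0.89 ± 0.28 (0.1). At the other end HOXC8, a brachial gene, stood at -0.81 ± 0.33 (limma adjusted p = 0.16) and HOXB3 at -0.65 ± 0.18 (0.076). A p that misses the threshold does not show that the ratios were equal in the 2 media. The standard errors of this difference, 0.18 to 0.51 over the members, were larger than those of a single ratio.

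That count of 0 depended on complete IP replicate 1. Without it HOXA6 (0.93, limma adjusted p = 0.0479) and HOXD11 (1.39, 0.0157) were called higher and HOXB3 (-0.66, 0.018), HOXB5 (-0.98, 0.034) and HOXC8 (-1.17, 0.0118) lower. Without complete input replicate 1 HOXA11 was called higher (1.15, limma adjusted p = 0.049), and without complete input replicate 2 HOXB7 was (1.10, 0.0341). On RPKM as deposited 6 members were called higher, against 29.3% of all genes, where the median of all genes itself stood at 0.68. Their values there were 1.61 for HOXA5, 1.28 for HOXA9, 1.67 for HOXB7, 2.02 for HOXB9, 1.40 for HOXC10 and 1.71 for HOXD11.

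The input comparison asked how HOX mRNA levels in the cell differed between the media, glucose-free against complete. In this comparison 0 members were higher and 14 were lower, where 18.4% of all genes tested were called higher and 15.6% lower. At an unadjusted p under 0.05, 0 were higher and 18 lower, against 23.7% and 23.0% of all genes. With limma voom on recovered reads 0 were higher and 14 lower, against 17.1% and 18.5%. The median of the 28 was -0.63 against -0.038 over all genes, with a range from -1.38 to 0.064. In scaled RPKM both glucose-free inputs lay below both complete inputs for 25 of the 28, against 38.8% of all genes. In such bulk libraries fewer cells with the mRNA and less mRNA per cell cannot be told apart.

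HOXA6, the gene of the first promoter above, had the largest change on this log2 scale, which understates that of low genes such as HOXB5. The scaled RPKM of HOXA6 was 2.79 and 3.41 as complete input and 0.605 and 0.542 as glucose-free input, a log2 change of -1.38 ± 0.20 (limma adjusted p = 0.00168). This was the call that stood in every fit that left out a library (limma adjusted p = 0.00188 to 0.0311). HOXB5, which takes part in the enteric nervous system, had 0.711 and 1.51 RPKM as complete input and 0.0865 and 0.0226 as glucose-free input, the last from 2 reads, a change of -1.25 ± 0.28 (limma adjusted p = 0.0113). HOXC9 changed by -1.17 ± 0.25 (0.00873) and HOXB9 by -1.08 ± 0.33 (0.0361). For HOXC9, HOXB7 and HOXB9 the groups did not overlap, and replicate 2 of the complete inputs was the higher one in HOXC9 and HOXB9.

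HOXD10 changed by -1.11 ± 0.31 (limma adjusted p = 0.0245), HOXC10 by -1.06 ± 0.25 (0.0136), HOXC6 by -1.02 ± 0.20 (0.0059), HOXD9 by -0.98 ± 0.18 (0.00519) and HOXB7 by -0.97 ± 0.22 (0.0128). HOXB7 had 5.55 and 5.88 RPKM as complete input and 1.44 and 1.66 as glucose-free input. HOXC10 had 0.568 and 0.573 RPKM in the glucose-free inputs, each below the 1.93 and 3.65 of the complete ones. HOXC6 fell to 0.0997 and 0.143 RPKM and HOXD9 to 0.0786 and 0.0616 from 0.843 and 0.768. These 5 cover clusters B, C and D and paralogue groups from 6 to 10.

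The other calls were smaller. HOXB13, the posterior gene at the end of cluster B, had 1.25 and 2.37 RPKM as complete input and 0.441 and 0.399 as glucose-free input, with 7.39 and 5.03 and then 3.23 and 4.89 in the respective IPs (-0.82 ± 0.21, limma adjusted p = 0.018). HOXC4 had 2.41 and 3.45 RPKM as complete input and 21.7 and 18.0 as complete IP, and its inputs differed by -0.78 ± 0.22 (limma adjusted p = 0.0257). HOXC11, of the paralogue group that induces the kidney in mice, had 0.802 and 1.84 RPKM as complete input and 0.342 and 0.289 as glucose-free input, with 12.8 and 9.47 and then 5.38 and 8.20 in the IPs (-0.68 ± 0.23, limma adjusted p = 0.0466). The anterior gene HOXA3 stood at -0.55 ± 0.18 (limma adjusted p = 0.0426). It had 0.366 and 0.798 RPKM as complete input and 0.0751 and 0.144 as glucose-free input, with 7.82 and 6.33 and then 4.72 and 6.23 in the IPs. At these input levels a glucose-free library held 11 to 27 reads of HOXA3.

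Another 3 members had input estimates near 0, and their difference from the other members was not tested. HOXD13 stood at 0.02 ± 0.36 (limma adjusted p = 0.969), HOXA13 at -0.02 ± 0.16 (0.948) and HOXD8 at 0.06 ± 0.16 (0.782), and in these the scaled inputs of the media overlapped. HOXA13 and HOXD13 are paralogues at the posterior ends of their clusters, while HOXB13 was called lower. Some of the 14 calls were lost without complete input replicate 2 or without a glucose-free IP. All but that of HOXA6 were lost without glucose-free input replicate 1, and again without glucose-free input replicate 2. For HOXB9 the adjusted p then reached 0.212 (limma), for HOXA3 0.281 and for HOXC11 0.257. The direction stayed negative for these genes, and the cause of the lost calls was not tested.

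**Figure D4:**
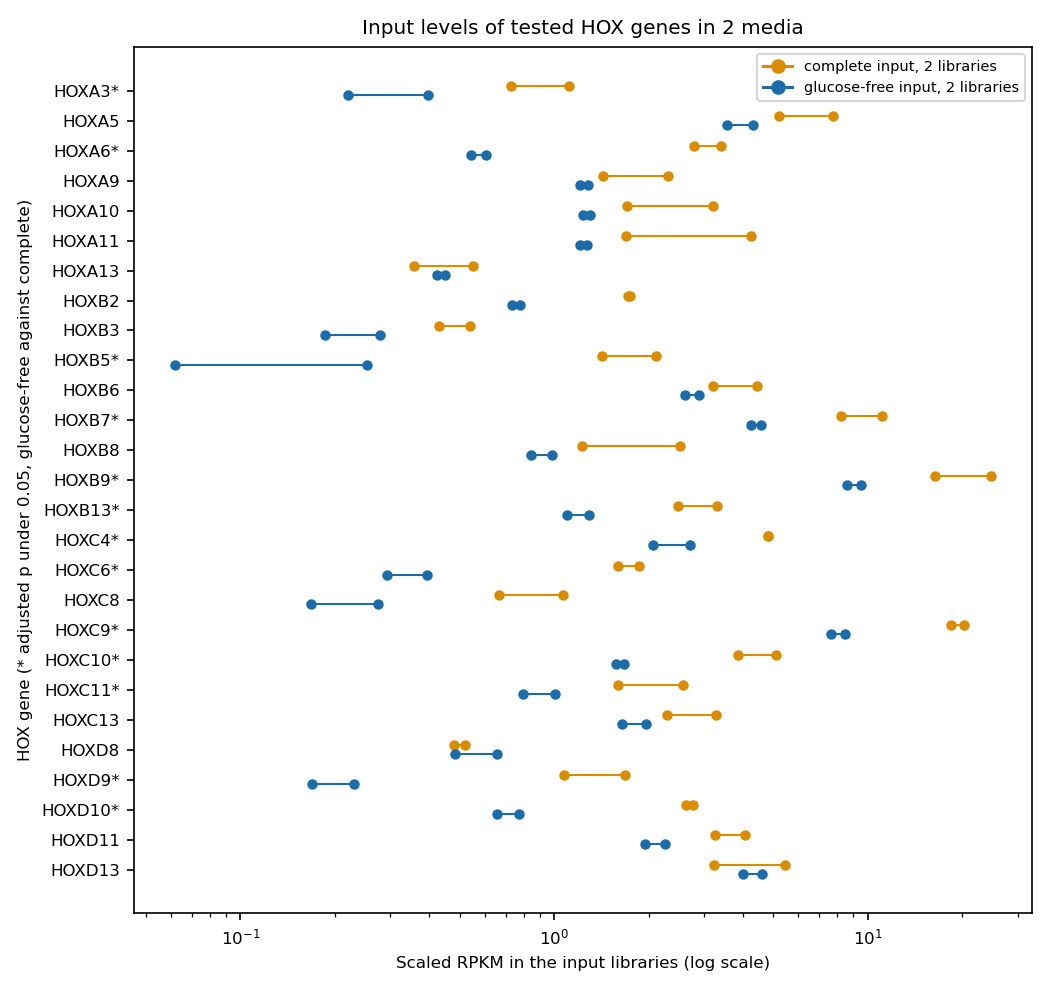
Scaled RPKM (log axis) of 27 of the tested HOX genes in the 2 complete (orange) and 2 glucose-free (blue) input libraries, with a line joining libraries of a group and an asterisk for an adjusted p under 0.05. The blue pair lies left of the orange pair in 24 of the 27 rows and overlaps it in HOXA13, HOXD8 and HOXD13.

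The members differed in how cleanly their reads can be assigned, since HOX genes share exons with their neighbours and with antisense transcripts and the use of strand in counting is not given in the sources used here. In GENCODE 29, 11 of the 28 tested members had over 10% of their exon bases in another gene, and 10 had none. HOXA6 shared 39.3% of its exon bases with the antisense transcript HOXA-AS3, and HOXA11 shared 31.1% with HOXA11-AS. HOXC9 shared 9.71% with HOXC-AS2 and 4.35% with HOXC6. HOXA5, HOXB8, HOXB9, HOXD9 and HOXD13 shared none. Of the 10 without any shared base, 8 were higher in the IP in complete medium, 8 without glucose, and 5 were lower in the glucose-free input. The shares of all genes tested were 30.0%, 27.6% and 15.6% in the same order. Members of the 10 that passed the filter through the IPs were not counted apart. The part of shared reads in the values of HOXA6 and HOXA11 was not tested.

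Tested HOX genes had a median exon length of 2481 bases against 4101.5 over all genes tested, and a median GC content of 54.4% against 51.2%. Across the 28, exon length and the change in the complete IP had a Spearman rho of -0.0077 and a Pearson r of 0.12. GC content had -0.052 and -0.085. For exon length the values were -0.13 and -0.17 with the change in the glucose-free IP, -0.30 and -0.41 with the ratio difference, and 0.40 and 0.42 with the input change. These are descriptions across genes that share libraries. With trends on length and GC removed per library, 25 members were called higher in the IP in each medium and 0 lower, where 33.1% of all genes were higher and 26.6% lower in complete medium and 30.5% and 27.1% without glucose. In the inputs 18 members were then lower without glucose, against 18.2% of all genes.

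The counts of the other lists stand beside the same shares of all genes tested: 30.0% higher and 29.9% lower in the complete IP, 27.6% and 32.2% in the glucose-free IP, and 18.4% and 15.6% in the glucose-free input. As with the HOX genes, listed genes with low inputs could pass the filter through the IP libraries. Such genes were not counted apart, so counts over the tested genes are not counts over the whole lists. Of 9 listed cofactors of the TALE class, 8 were tested; 6 were higher in the complete IP and 4 in the glucose-free IP, none was lower in either, 0 differed between the media and 1 was lower in the glucose-free input. PBX2, which dimerises with HOX proteins on DNA, had 1.42 and 2.72 RPKM as complete input, 31.0 and 29.3 as complete IP, 0.481 and 0.599 as glucose-free input and 22.0 and 30.6 as glucose-free IP. Its changes were 1.96 ± 0.22 in complete medium (limma adjusted p = 0.000134), 2.19 ± 0.22 without glucose (7.81e-05) and -0.76 ± 0.22 between the inputs (0.0293), a call that was lost under 9 of 19 alternatives, those without either glucose-free input or either glucose-free IP among them. PBX3 changed by 1.70 ± 0.26 in the complete IP (limma adjusted p = 0.000638), MEIS2 by 1.35 ± 0.25 (0.00159) and MEIS1 by 1.11 ± 0.17 (0.000652). The median of the list was 1.10 in complete medium and 0.52 without glucose.

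The regulators of the clusters came in a pair of lists. Of 15 Trithorax and MLL genes, all tested, the complete IP had 11 higher and 1 lower, and the glucose-free IP had 9 higher and 2 lower. KMT2D, a histone H3 lysine methyltransferase, changed by 3.62 ± 0.32 (limma adjusted p = 4.37e-05) and 4.17 ± 0.32 (3.45e-05), from 1.49 and 4.68 RPKM to 128 and 127 in complete medium. DPY30, a small core subunit of the same complexes, went the other way in complete medium, at -2.05 ± 0.27 (limma adjusted p = 0.000264). In the inputs 6 were lower without glucose and 1 higher, KMT2D at -1.55 ± 0.32 (limma adjusted p = 0.00756) and MEN1, the menin gene, at -1.27 ± 0.28 (0.0113) among the lower. Both input calls were lost without glucose-free input replicate 1 or 2. Of 24 tested Polycomb genes the complete IP had 10 higher and 2 lower, the glucose-free IP had 9 higher and 8 lower, near the shares of all genes, and in the inputs 10 were higher without glucose and 4 lower. JARID2, which recruits Polycomb repressive complex PRC2, changed by 2.24 ± 0.23 (limma adjusted p = 8.33e-05) in the complete IP, and PHF19, another PRC2 accessory subunit, by -2.15 ± 0.22 (8.28e-05). RING1, a ubiquitin ligase of PRC1, was higher in the glucose-free input by 1.19 ± 0.24 (limma adjusted p = 0.00738) and PCGF2 was lower by a change of -1.48 ± 0.23 (0.00222). The call of RING1 was lost under 4 of 19 alternatives, leaving out either glucose-free input among them, and that of PCGF2 under 0.

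Of 18 listed noncoding RNAs of the clusters, 11 were tested; the complete IP had 5 higher and 3 lower, the glucose-free IP had 6 higher and 0 lower, and 2 were lower in the glucose-free input. HOTAIR, transcribed between HOXC11 and HOXC12 from the opposite strand, changed by 1.90 ± 0.21 in the complete IP (limma adjusted p = 0.000122), with 0.267 and 0.296 RPKM in the inputs and 7.05 and 10.5 in the IPs. With complete inputs this low, HOTAIR may have passed the filter through its IP libraries. HOTAIRM1, transcribed within cluster A, stood at -1.12 ± 0.27 in the complete IP (limma adjusted p = 0.00671) and at -1.28 ± 0.27 between the inputs (0.00889), the latter call being lost without glucose-free input replicate 1 or 2. HOXC-AS1 was lower in the complete IP by a change of -1.67 ± 0.39 (limma adjusted p = 0.00552). Its call was lost on RPKM as deposited and with length and GC trends removed. Genes that flank the clusters were few: of 11 listed 5 were tested, of which SMUG1, a DNA glycosylase beside cluster C, was lower in the complete IP (-0.92 ± 0.22, limma adjusted p = 0.00588) and none was called in the other 3 comparisons.

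Homeobox genes outside the clusters gave a wider comparison, with the same limit from the filter. Of 103 listed, 58 were tested; the complete IP had 40 higher and 4 lower, the glucose-free IP had 34 higher and 2 lower, and the glucose-free input had 1 higher and 16 lower. Their medians were 0.85, 0.57 and -0.34, beside 0.94, 0.77 and -0.63 for the HOX genes, and the difference between the lists was not tested. POU3F3, a neural POU factor also found in kidney, changed by 2.78 ± 0.21 (limma adjusted p = 3.26e-05) and 2.87 ± 0.21 (3.17e-05) in the IPs, and EN2, the midbrain and hindbrain gene engrailed 2, by 2.41 ± 0.25 (9.13e-05) and 2.83 ± 0.25 (4.94e-05). DLX2 (-1.81 ± 0.36, limma adjusted p = 0.00662) and DLX5 (-1.22 ± 0.20, 0.00259), of a family that acts in forebrain and jaw, led the lower inputs; DLX2 lost the call without glucose-free input replicate 2. For scale, JUN had 5.18 and 12.0 RPKM in the complete inputs and 232 and 248 in the IPs, a change of 3.15 ± 0.33 (limma adjusted p = 9.7e-05), above that of every HOX gene, and 3.02 ± 0.33 without glucose (0.000114), where HOXB9 stood at 2.83.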

How the data were processed

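Libraries of polyadenylated RNA came from inputs and eIF3d IPs in 2 media, 2 libraries each. The authors deposited RPKM in a table per medium (57998 and 57978 genes). The tools were cutadapt, HISAT2 and SAMtools on build GRCh38, per the submitters' processing notes; the sources used here give no versions, read counter or annotation. Exon lengths of GENCODE 29 turned 97.5% to 98.0% of low RPKM (up to 50 reads) into whole reads within 0.02, which gave the library totals.

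The members and gene lists were chosen with earlier results of these data known. RPKM were scaled to equal library medians over the 10100 genes with a mean of at least 1 RPKM, and log2(scaled RPKM + 1) of all 4 groups was fitted with limma 3.58.1 (R 4.3.3, intensity trend, Benjamini-Hochberg over all genes tested, adjusted p under 0.05). Scaling came before the logarithm because centring after it had been reported to call unchanged low genes in simulated reads. The fit was tested on simulated data, where large changes were recovered more often than small ones. The smallest change simulated was recovered in no comparison. Past it, changes were recovered less often in the ratio difference than in the other comparisons. In the simulated complete IP against input more unchanged genes were called than elsewhere, a larger share of calls than the 0.05 threshold allows. An exact two-sided permutation test of 2 against 2 libraries cannot go below p = 0.333. Every tested member could be named, except 1 whose own values are not reported here and which stays in the counts and medians; values per library are given for the 10 with the highest mean RPKM and for those called between the inputs or between the ratios, and up to 4 called genes per other list. Alternatives were another pseudocount, other filters, normalizations and sample sets, a replicate block, voom on recovered reads and leaving out each library. Protein sequences were not used here.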

Additional observations from a re-analysis of the deposited data

Results flagged for a closer look

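No HOX gene had an IP to input ratio that differed between the media in the test of that difference. Among the 121 tested genes of the other lists 5 did, which is 4.13% (limma, adjusted p under 0.05 over all genes tested), each as the glucose-free minus the complete log2 ratio, where 5.03% of all genes tested were called in either direction, so the share is near that of all genes. SIX2, a homeobox gene of kidney progenitors, stood at 1.66 ± 0.33 (limma adjusted p = 0.0306), with 1.64 and 3.23 RPKM as complete input, 11.5 and 9.98 as complete IP, 0.574 and 0.857 as glucose-free input and 24.4 and 34.6 as glucose-free IP. POU3F2, a neural POU factor, stood at -1.05 ± 0.23 (limma adjusted p = 0.0385), with 5.96 and 5.96 RPKM in the complete IPs and 2.58 and 2.11 in the glucose-free IPs. The Polycomb genes AEBP2 and EED stood at -1.13 ± 0.20 (limma adjusted p = 0.0216) and -0.98 ± 0.21 (0.0375), and ASH2L, a core subunit of the MLL complexes, at -1.23 ± 0.26 (0.0383). AEBP2, EED and ASH2L each had higher RPKM in both glucose-free inputs than in both complete inputs. Each of the 5 calls was lost under 7 to 10 of the 18 alternatives, and the cause was not tested.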

How the results depend on the processing

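The calls depend on the scaling and on single libraries. Under 19 alternatives, 2100 values of the 28 tested HOX genes were compared with the main fit. Of these, 1846 kept the call or its absence, 156 lost the call and 87 gained a call. A change of sign with no call in either fit was counted as kept. The remaining 11 changed sign with a call before or after, and those of members reported singly follow. On RPKM as deposited, 0 members were lower in either IP and 6 were higher in the ratio difference; HOXB7 (1.21), HOXC10 (0.81) and HOXC9 (0.21) turned positive in the complete IP, as did HOTAIRM1 (0.25) and SMUG1 (0.11), and in the glucose-free IP HOXC9 (1.45), PHF19 (0.50) and PCGF1 (0.76) did. With libraries centred after the log, 3 members were lower in the glucose-free IP, 4 in the ratio difference and 3 in the input; HOXA13 (-0.27), HOXB3 (-0.62), HOXC8 (-0.77), HOXD8 (-0.042) and HOXC13-AS (-0.094) turned negative in the glucose-free IP. With length and GC trends removed 0 members were lower in either IP, and HOXB7 (0.87) and HOTAIRM1 (0.043) in complete medium and HOXC9 (0.052) without glucose turned positive. Under quantile normalization 0 were lower in the glucose-free IP, 1 in the ratio difference and 5 in the input, and with no filter 7 of all 39 members were lower in the input, 5 of them among the 28. Leaving out a library gave 15 to 20 higher and 1 to 2 lower in the complete IP, 11 to 22 and 0 to 1 in the glucose-free IP, 0 to 2 and 0 to 3 in the ratio difference, and 0 higher and 1 to 19 lower in the input. Where this left a group with 1 library, that library is assumed to vary like the other groups. For most of these alternatives the shares of all genes called are not given. There a shift of the HOX counts cannot be told from a shift of all genes. The cause of these shifts was not tested. Replicate numbers did not pair the libraries (r of deviations between groups -0.096 to 0.13); with them as a block, 18 and 19 members were higher in the IPs, 1 lower in each, 0 differed in ratio and 12 were lower in the input. The fit on only the libraries compared was not run for the ratio difference, which uses all 8. Low levels limit the inputs: HOXB5 rested on 2 reads in a glucose-free input.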
